A study of Mus musculus with 16 samples.

Results

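The heat shock protein genes examined here are 10 rows of the count table of 55450 genes, chosen by gene name: Hspa1a, Hspa1b, Hspa8, Hspa5, Hsp90aa1, Hsp90ab1, Hsph1, Dnajb1, Hspd1 and Hspe1. They were measured by total RNA sequencing of CD4+ and CD8+ tumor-infiltrating lymphocytes (TILs), taken from tumors grown s.c. from the mouse melanoma cell line B16F10. The mice were WT C57BL/6J or Sirt2-/- (B6.129-Sirt2tm1.1Fwa/J, a germline deletion carried by every cell of the host), 7 to 8 weeks old, and no group received a further treatment. SIRT2 is an NAD-dependent deacetylase. With 4 libraries for each of the 4 groups (WT CD4+, Sirt2-/- CD4+, WT CD8+ and Sirt2-/- CD8+ TILs), the design allows each gene to be compared between genotypes within a cell type and between cell types within a genotype. The methods give 4 mice per group, and the labels do not say whether CD4+ and CD8+ libraries with the same number came from the same mouse or whether mice were pooled. The methods describe enzymatic digestion of the tumor, a Percoll gradient and CD3 beads, and do not state how CD4+ and CD8+ cells were then separated.

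Heat shock proteins are chaperones, which bind unfolded or partly folded proteins and help them to fold, assemble or be degraded. Some are made in every cell, as are Hspa8 and Hsp90ab1, and others, such as Hspa1a and Hspa1b, are switched on by heat shock factor 1 (HSF1) when unfolded proteins build up. In T cells, chaperone synthesis rises with activation and growth, Hsp90 keeps kinases such as LCK folded, and enzymatic digestion of a tissue is known to induce Hspa1a and Hspa1b together with immediate early genes.

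Total counts per library ranged from 28000949 to 62407851. At least 1 count was found on 17730 to 22138 genes in 13 libraries, and on only 8169 (Sirt2-/- CD4+ replicate 4), 12587 (WT CD4+ replicate 1) and 14411 genes (WT CD8+ replicate 1) in the rest. These 3 libraries with few genes detected, below 15000, stand apart from the others, and the fits of the 10 genes and the counts of calls are given with and without them. Cd4 was at 344 to 639 CPM (counts scaled to the library's total count, with the same scaled total for every library) in CD4+ TILs and at most 4.94 CPM in CD8+ TILs. Cd8a was at 950 to 1250 CPM in CD8+ TILs and at most 34.6 CPM in CD4+ TILs. Sirt2 counts were 1196 to 2272 in WT libraries and 322 to 553 in Sirt2-/- libraries, except Sirt2-/- CD4+ replicate 4, with 0. Sirt2 was lower in Sirt2-/- CD8+ TILs by edgeR's quasi-likelihood test (log2 fold change -2.22 ± 0.21 SE, Benjamini-Hochberg adjusted p = 0.00663). In CD4+ TILs the deleted gene itself was not called with all libraries (-2.60 ± 1.25, edgeR adjusted p = 0.9999), and was called without the libraries with few genes (-1.95 ± 0.18, adjusted p = 0.00163). Whether the remaining counts fall outside the deleted part is not given in the sources used here.

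Markers of other cells were low in most libraries and were not tested for a part in the results below. The summed level of 7 melanoma markers was 3.58 to 16.1 CPM in 14 libraries, and 109 and 72.9 CPM in WT CD4+ replicate 1 and Sirt2-/- CD4+ replicate 4. In the 16 libraries 5 of these 7 markers (Pmel, Tyr, Tyrp1, Mlana and Slc45a2) were at 0 in at least 2. Dct and Mitf were at 0 in none, and reached 49.6 and 48.3 CPM. The 10 myeloid markers summed to 1.61 to 38.0 CPM, and Csf1r and Adgre1 were at 0 in 4 and 5 libraries. Cd68 was at 0 in none and Lyz2 in 1, and they reached 9.45 and 10.8 CPM. The 4 NK cell markers summed to 212 to 418 CPM in CD8+ and 14.1 to 47.3 CPM in CD4+ TILs, mostly from Eomes, which effector CD8+ T cells also express, and the other 3 were at most 11.4 CPM in any library. The stromal markers summed to 37.1 to 189 CPM, mostly from Pecam1, with Dcn at 0 in 11 libraries. B cell markers summed to at most 13.4 CPM and erythroid markers to at most 10 CPM. Between genotypes no marker of these lists was called by edgeR. All 7 tested myeloid markers lay above 0 for Sirt2-/- over WT in each cell type. Their median log2 fold change was 1.33 in CD4+ and 2.36 in CD8+ TILs with all libraries. The 3 tested stromal markers lay above 0 in both, and 1 of 6 tested melanoma markers did in CD4+ TILs (3 of 3 in CD8+ TILs).

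All 10 genes passed edgeR's filter on low counts in every comparison, and together they took 0.406% to 0.99% of all counts in a library. Levels of different genes were compared per kilobase of exon (RPKM, the CPM divided by the exon length in kilobases). Hsp90ab1, the constitutive cytosolic Hsp90, had the highest mean RPKM in every group, from 703 in WT CD4+ to 1282 in WT CD8+ TILs. Hspa8, the constitutive cytosolic Hsp70, was second in every group, from 315 RPKM in WT CD4+ to 597 RPKM in WT CD8+ TILs, and its lowest library lay above the highest library of the next gene in all groups but Sirt2-/- CD4+ TILs. Hsp90aa1, the inducible Hsp90, and Hspa5 (BiP), the Hsp70 of the endoplasmic reticulum (ER), came next, at 124 to 208.5 and 97.0 to 156.5 mean RPKM, and their ranges overlapped in every group. The mitochondrial chaperonin Hspd1 (Hsp60) and its lid Hspe1 (Hsp10), which work as a complex, were at 42.95 to 109 and 35.2 to 81.4 mean RPKM. Hsph1, Dnajb1, Hspa1b and Hspa1a were the lowest, all with a mean of at most 25.0 RPKM, and Hspa1a was last in every group, with 3.0 to 8.6 RPKM.

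**Figure D1:**
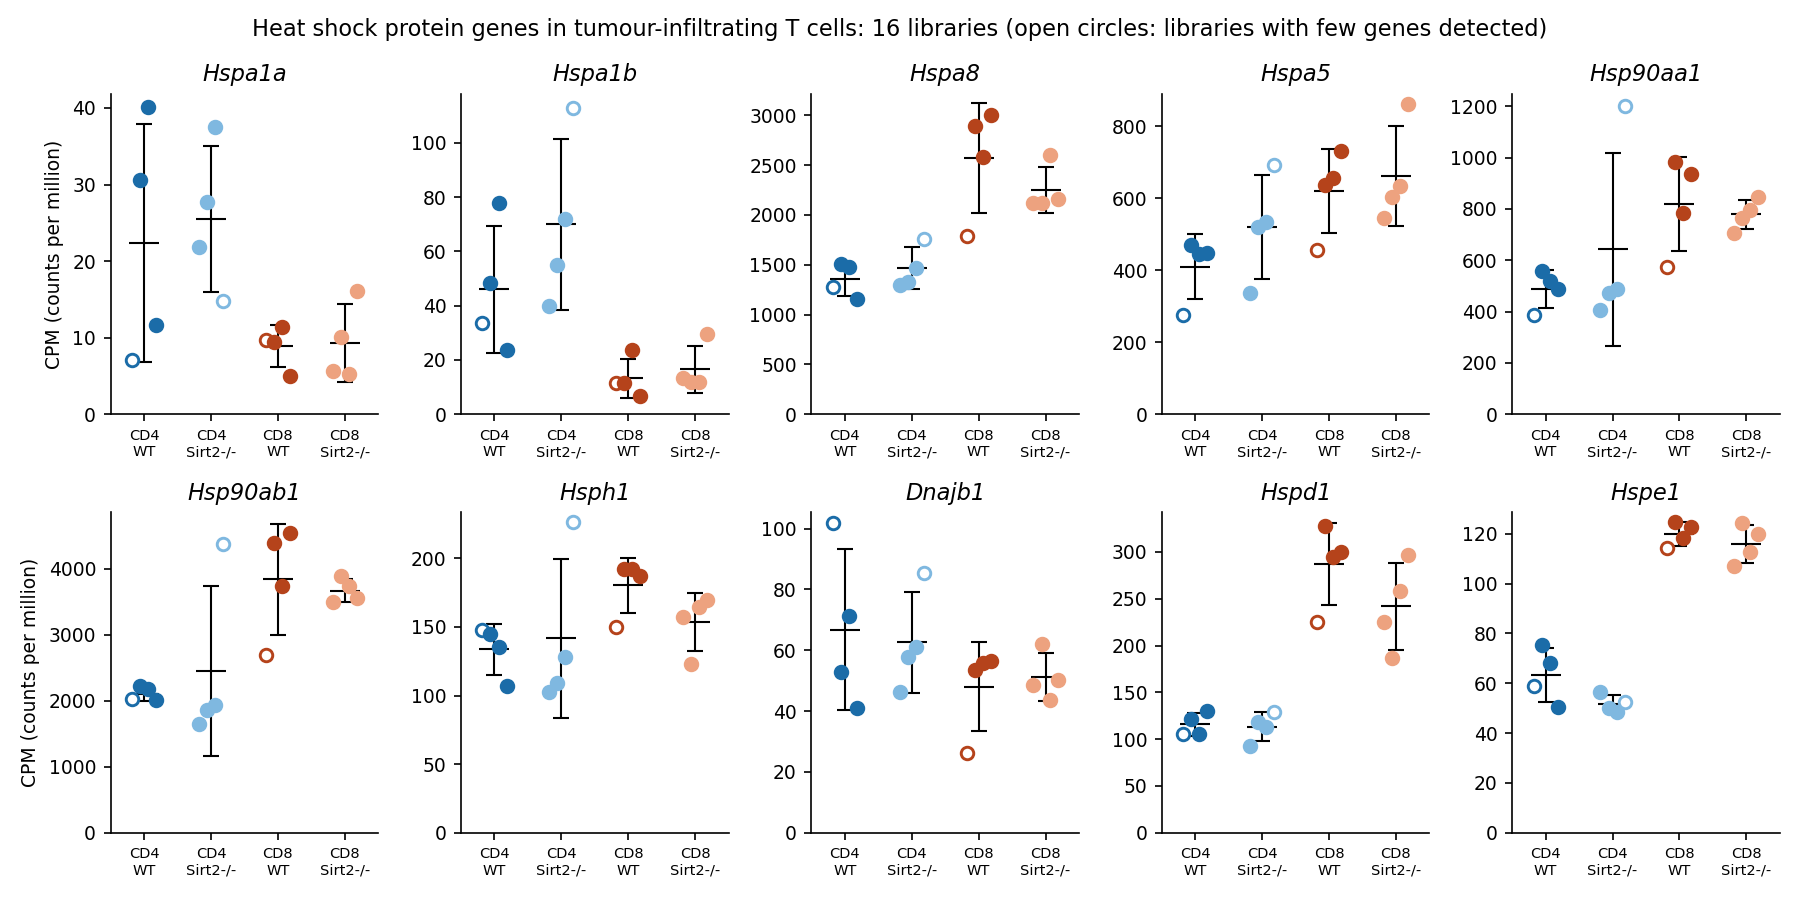
CPM of each heat shock protein gene on linear axes that start at 0, with a point for each library, the mean (horizontal bar) and SD (whiskers, n = 4) of each group. Open circles are the 3 libraries with few genes detected. Hspa1a and Hspa1b are higher in most CD4+ than CD8+ libraries, Hspa8, Hspd1 and Hspe1 are higher in every CD8+ than every CD4+ library, and Hsp90aa1 and Hsp90ab1 are high in 1 open-circle library of Sirt2-/- CD4+ TILs.

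Between the cell types, the 10 genes did not move one way. In WT mice, Hspa8, Hsp90aa1, Hsp90ab1, Hspd1 and Hspe1 were higher in CD8+ than CD4+ TILs, by 1.6- to 2.34-fold, and the stress-induced Hspa1b was 3.60-fold lower, at an adjusted p below 0.05 (edgeR quasi-likelihood test over all genes, Benjamini-Hochberg). Of 14892 genes tested, 4.89% were called higher and 6.96% lower, against 5 and 1 of the 10 heat shock protein genes. When the libraries with few genes were left out, 7 of the 10 were called higher (all genes: 14.9%) and 2 lower (all genes: 13.1%), with Hspa5, Hsph1 and Hspa1a added and Dnajb1 the gene not called. The median log2 fold change of the 10 genes was 0.59 with all libraries, against -0.02 for all genes tested. Without the libraries with few genes these medians were 0.66 and 0.007.

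In Sirt2-/- mice the signs of all 10 fold changes were as in WT, and Hspd1 and Hspe1 were called higher, 2 of 10 against 0.918% of 15787 genes. None of the 10 was called lower, against 1.32% of all genes. Without Sirt2-/- CD4+ replicate 4, the library with 8169 genes, 6 were called higher (all genes: 13.8%) and 2 lower (all genes: 11.6%). The median of all genes was 0.16 with that library and -0.004 without it, on the log2 scale, and the median of the 10 genes was 0.28 and 0.64. The WT and Sirt2-/- comparisons share no library.

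**Figure D2:**
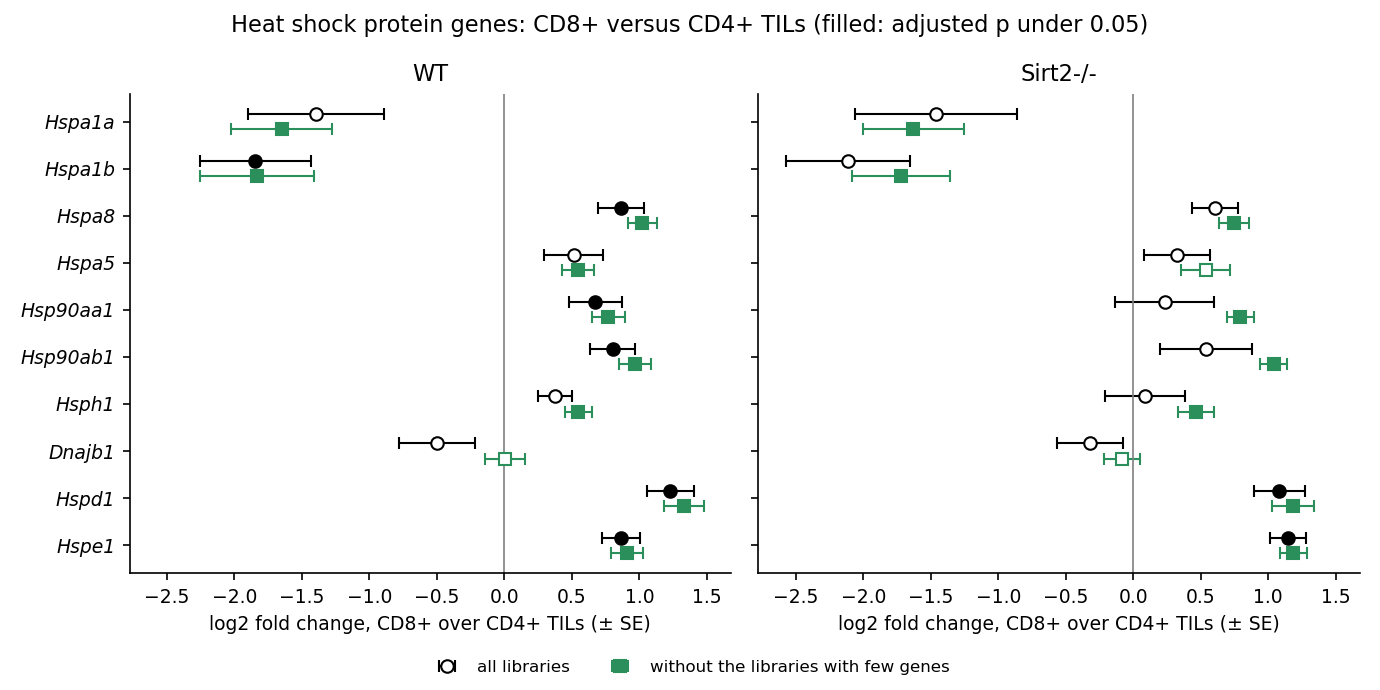
Log2 fold change of CD8+ over CD4+ TILs (horizontal axis) with its SE for each heat shock protein gene in WT (left) and Sirt2-/- mice (right), from all libraries (black circles) and without the libraries with few genes (green squares). Filled symbols have an adjusted p below 0.05. Hspa1a and Hspa1b lie left of 0 in both panels and with both sets of libraries, Dnajb1 is called in neither panel, and the other 7 genes lie right of 0.

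The inducible Hsp70 genes Hspa1a and Hspa1b encode nearly the same protein. Hspa1b was higher in CD4+ than CD8+ TILs in WT mice, and both genes were in both genotypes without the libraries with few genes. They lie on chromosome 17 of GRCm38 (Hspa1a at chr17:34969190-34972156 and Hspa1b at chr17:34956436-34959238, both on the minus strand), 9951 bases apart. The 250 bases before their RefSeq start sites (GRCm38.p6, minus strand) are printed because both genes had the same sign in every comparison of cell types: 247 of 250 positions are the same. Capitals mark the heat shock element of 2 units (GAANNTTC or TTCNNGAA, searched on both strands), the motif that HSF1 binds in repeats, at -104 to -97 in both.
Hspa1a, chr17:34972157-34972406: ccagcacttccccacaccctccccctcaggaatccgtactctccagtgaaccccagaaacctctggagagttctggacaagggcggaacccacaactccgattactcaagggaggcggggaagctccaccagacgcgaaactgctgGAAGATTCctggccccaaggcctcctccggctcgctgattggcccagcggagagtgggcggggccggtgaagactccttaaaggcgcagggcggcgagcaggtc
Hspa1b, chr17:34959239-34959488: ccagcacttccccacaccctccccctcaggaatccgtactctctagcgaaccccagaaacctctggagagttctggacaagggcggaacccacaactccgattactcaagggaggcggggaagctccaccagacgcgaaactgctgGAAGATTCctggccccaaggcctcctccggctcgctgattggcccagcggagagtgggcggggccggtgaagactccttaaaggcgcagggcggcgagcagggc
This motif of 2 units occurred in 15.1% of 32851 RefSeq windows from 250 bases before to 50 after a start. Of the 7 heat shock protein genes with a window, 5 had it (Hspa8, Hsp90aa1 and Hsp90ab1 were without a window). The share counts windows and the 5 counts genes, and Hsph1, Dnajb1 and Hspd1 have 2 windows each. The 5 are not separate, since Hspa1a and Hspa1b share nearly all these bases, and the elements of Hspd1 and Hspe1 are the same run of bases.

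Hspa1b was at 33.75, 48.5, 77.9 and 23.8 CPM in WT CD4+ TILs (replicates 1 to 4) and at 39.9, 55.1, 72.1 and 112.8 CPM in Sirt2-/- CD4+ TILs. In CD8+ TILs it was at 11.4, 11.4, 23.6 and 6.84 CPM in WT and at 13.3, 11.8, 11.8 and 29.5 CPM in Sirt2-/- libraries. Within each genotype every CD4+ library exceeded every CD8+ library, although the lowest WT CD4+ library and the highest WT CD8+ library nearly met. The log2 fold change of CD8+ over CD4+ TILs was -1.85 ± 0.41 (SE) in WT (edgeR adjusted p = 0.014) and -2.11 ± 0.46 in Sirt2-/- mice (adjusted p = 0.0601). Without the libraries with few genes it was -1.84 ± 0.42 (adjusted p = 0.00833) and -1.72 ± 0.36 (adjusted p = 0.0101). The WT call was lost without WT CD4+ replicate 3 (adjusted p = 0.0501, edgeR) and without WT CD8+ replicate 2 (adjusted p = 0.0504).

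Hspa1a was at 7.11, 30.6, 40.1 and 11.6 CPM in WT CD4+ TILs and at 21.9, 27.8, 37.5 and 14.9 CPM in Sirt2-/- CD4+ TILs. In CD8+ TILs the values were 9.68, 9.40, 11.5 and 5.06 CPM in WT and 5.70, 10.05, 5.28 and 16.1 CPM in Sirt2-/- libraries. The groups overlapped through WT CD4+ replicate 1 and Sirt2-/- CD4+ replicate 4, both with few genes detected, and were apart without them. The WT groups then nearly met, at 11.6 CPM in CD4+ replicate 4 and 11.5 CPM in CD8+ replicate 3. Between the cell types, the log2 fold change (CD8+ over CD4+ TILs) was -1.40 ± 0.50 in WT (edgeR adjusted p = 0.106). In Sirt2-/- mice it was -1.46 ± 0.60 (edgeR adjusted p = 0.371). Both passed without the libraries with few genes (-1.65 ± 0.37, edgeR adjusted p = 0.00756, and -1.63 ± 0.38, edgeR adjusted p = 0.0133).

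Reads cannot fully separate the pair. Of the 100-base stretches of the Hspa1a exons, 56.5% also occur in another gene, mainly Hspa1b, and 49.9% of those of Hspa1b do, and how the counting treated such reads is not given in the sources used here. The count of Hspa1b was 1.17 to 2.32 times that of Hspa1a in 14 libraries, 4.75 times in WT CD4+ replicate 1 and 7.60 times in Sirt2-/- CD4+ replicate 4. With the counts of both genes summed, the log2 fold change of CD8+ over CD4+ TILs was -1.68 ± 0.40 in WT (edgeR adjusted p = 0.0185) and -1.91 ± 0.38 in Sirt2-/- mice (adjusted p = 0.0437). Gm20481, annotated on the other strand, overlaps Hspa1a.

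**Figure D3:**
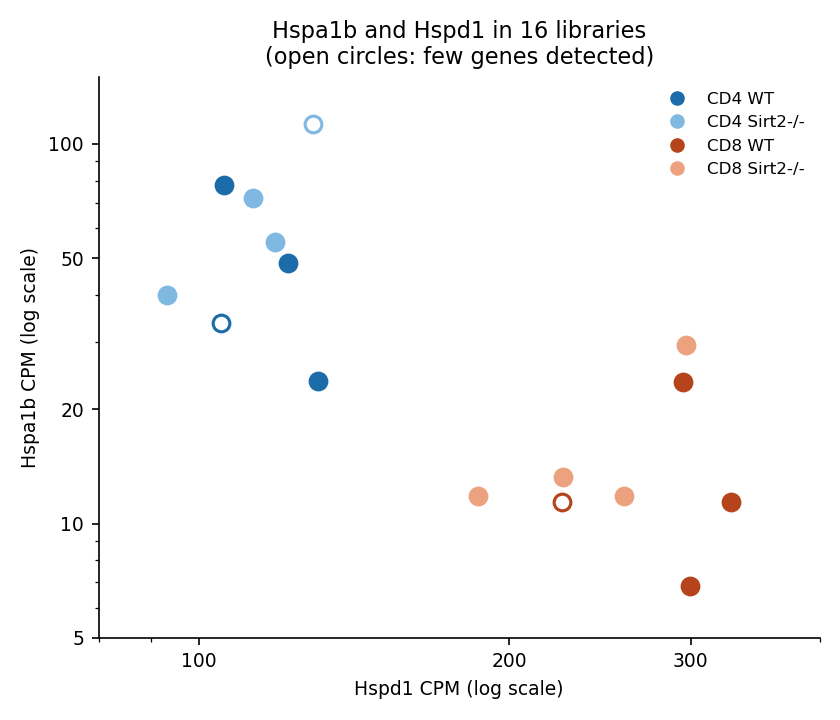
Hspa1b (vertical axis) against Hspd1 (horizontal axis) in CPM on log scales, with a point for each of the 16 libraries, colored by group, and open circles for the 3 libraries with few genes. The CD4+ libraries lie at 93.1 to 130.5 CPM of Hspd1 and 23.8 to 112.8 CPM of Hspa1b, and the CD8+ libraries at 186.5 to 328 CPM of Hspd1 and 6.84 to 29.5 CPM of Hspa1b.

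Dnajb1 encodes the Hsp40 that delivers clients to the inducible Hsp70, and was called in neither comparison of cell types. It was at 102, 52.9, 71.4 and 41.0 CPM in WT CD4+ and at 46.25, 57.7, 60.95 and 85.5 CPM in Sirt2-/- CD4+ TILs, against 26.3 to 56.5 CPM in WT CD8+ and 43.6 to 62.2 CPM in Sirt2-/- CD8+ TILs. The highest CD4+ and the lowest CD8+ values came from the libraries with few genes. The log2 fold change of CD8+ over CD4+ TILs was -0.50 ± 0.28 in WT and -0.32 ± 0.25 in Sirt2-/- mice with all libraries, and 0.004 ± 0.15 and -0.08 ± 0.13 without those libraries (edgeR adjusted p = 0.315, 0.811, 0.989 and 0.72).

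With all libraries, the mitochondrial chaperonin genes Hspd1 and Hspe1 were the genes called higher in CD8+ TILs in both genotypes. Without the libraries with few genes, Hspa8, Hsp90aa1, Hsp90ab1 and Hsph1 were also called higher in both. Hspd1 and Hspe1 lie head to head on chromosome 1 of GRCm38 (Hspd1 at chr1:55077835-55088243 on the minus strand and Hspe1 at chr1:55088132-55091307 on the plus strand) and overlap by 112 bases. The 30 bases at -95 to -66 of the Hspe1 start are shown because they hold a run of heat shock elements. The run lies between the RefSeq start of Hspe1 and 1 of the 2 RefSeq starts of Hspd1. The window of the other Hspd1 start held no heat shock element. Capitals mark heat shock elements of 3 units (GAANNTTCNNGAA or TTCNNGAANNTTC, both strands, overlapping with the motif of 2 units), which occurred in 0.603% of the 32851 windows.
Hspe1, chr1:55088053-55088082, plus strand: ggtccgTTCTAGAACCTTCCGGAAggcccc
The letters matched in an Hspd1 window, at -144 to -127, are the reverse complement of the same run, and Hsph1 is the third gene with such a motif.

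Hspd1 was at 105, 122, 106 and 130.5 CPM in WT CD4+ TILs and at 93.1, 119, 113 and 129 CPM in Sirt2-/- CD4+ TILs. In CD8+ TILs it was at 225, 328, 295 and 300 CPM in WT and at 225.5, 186.5, 258 and 297 CPM in Sirt2-/- libraries. Every CD8+ library exceeded every CD4+ library, the 3 libraries with few genes included. Between the cell types, the log2 fold change (CD8+ over CD4+ TILs) was 1.23 ± 0.18 in WT (edgeR adjusted p = 0.00118) and 1.08 ± 0.19 in Sirt2-/- mice (adjusted p = 0.0273). In Sirt2-/- mice the call was lost when any library but CD4+ replicate 4 or CD8+ replicate 2 was left out, with adjusted p up to 0.105 and log2 fold changes of 0.98 to 1.09, and without CD4+ replicate 4 it was 1.18 ± 0.16 (edgeR adjusted p = 0.000451). In WT it was 1.33 ± 0.15 (adjusted p = 9.54e-05) without the libraries with few genes. With the replicate number as a block, the Sirt2-/- call was lost (1.07, edgeR adjusted p = 0.0683).

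Hspe1 was at 58.9, 75.4, 68.2 and 50.5 CPM in WT CD4+ TILs and at 56.55, 50.1, 48.3 and 52.5 CPM in Sirt2-/- CD4+ TILs. In CD8+ TILs it was at 114, 125, 118 and 123 CPM in WT and at 107, 124, 113 and 120 CPM in Sirt2-/- libraries. The groups of the cell types were far apart beside their spread. The log2 fold change of CD8+ over CD4+ TILs was 0.86 ± 0.14 in WT (edgeR adjusted p = 0.0025) and 1.15 ± 0.14 in Sirt2-/- mice (adjusted p = 0.005), and the call held in each genotype when any library was left out. The values were 0.91 ± 0.12 (adjusted p = 0.000327) and 1.19 ± 0.10 (adjusted p = 3.87e-05) without the libraries with few genes. With the replicate number as a block, the Sirt2-/- call was lost (1.15, edgeR adjusted p = 0.0513). Of the 100-base stretches of Hspd1 and Hspe1, 23.9% and 11% occur in another gene, and 8 of 11 table rows for their annotated pseudogenes had no count in any library. Hspd1-ps3, the main gene that shares stretches with Hspd1 (599 of the 639 shared), had 5 to 102 counts and was found in all 16 libraries. How reads that match several genes were counted is not given in the sources used here.

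The cytosolic workhorses Hspa8, Hsp90aa1 and Hsp90ab1 were also higher in CD8+ TILs in WT mice, and in Sirt2-/- mice without CD4+ replicate 4. Hspa8 (chr9:40800984-40810087, plus strand) binds nascent and misfolded proteins and strips clathrin from vesicles. It was at 1276, 1512, 1482 and 1156 CPM in WT CD4+ TILs and at 1301, 1325, 1467 and 1760 CPM in Sirt2-/- CD4+ TILs. In CD8+ TILs it was at 1785, 2897, 2584 and 3008 CPM in WT and at 2119, 2120, 2599 and 2164 CPM in Sirt2-/- libraries. Every CD8+ library exceeded every CD4+ library, with the least distance between the libraries with few genes. Between the cell types, the log2 fold change (CD8+ over CD4+ TILs) was 0.86 ± 0.17 in WT (edgeR adjusted p = 0.00715) and 0.61 ± 0.17 in Sirt2-/- mice (adjusted p = 0.127), and 1.02 ± 0.11 (adjusted p = 8.61e-05) and 0.74 ± 0.11 (adjusted p = 0.000755) without the libraries with few genes. Of its 100-base stretches 28.5% occur in another gene, mainly Gm15459, and 3 small nucleolar RNA genes lie inside it.

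Hsp90ab1 (chr17:45567775-45573271, minus strand) was at 2025, 2225, 2178 and 2009 CPM in WT CD4+ TILs and at 1657, 1855, 1935 and 4385 CPM in Sirt2-/- CD4+ TILs. In CD8+ TILs it was at 2695, 4400, 3743 and 4544 CPM in WT and at 3507, 3888, 3736 and 3564 CPM in Sirt2-/- libraries. Apart from Sirt2-/- CD4+ replicate 4, all CD4+ libraries were below all CD8+ libraries. The log2 fold change of CD8+ over CD4+ TILs was 0.80 ± 0.17 in WT (edgeR adjusted p = 0.0105) and 0.54 ± 0.34 in Sirt2-/- mice (adjusted p = 0.695). Without the libraries with few genes it was 0.97 ± 0.12 (adjusted p = 0.000193) and 1.04 ± 0.10 (adjusted p = 5.76e-05).

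Hsp90aa1 (chr12:110690605-110702728, minus strand) was at 387, 558, 521 and 487 CPM in WT CD4+ TILs and at 406, 472, 490 and 1203 CPM in Sirt2-/- CD4+ TILs. In CD8+ TILs it was at 574, 983.5, 784 and 936.5 CPM in WT and at 707, 766, 794 and 846 CPM in Sirt2-/- libraries. As for Hsp90ab1, a high value in Sirt2-/- CD4+ replicate 4 made the Sirt2-/- groups overlap. Between the cell types, the log2 fold change (CD8+ over CD4+ TILs) was 0.67 ± 0.20 in WT (edgeR adjusted p = 0.0499) and 0.23 ± 0.37 in Sirt2-/- mice (adjusted p = 0.998), and 0.77 ± 0.12 (adjusted p = 0.000944) and 0.79 ± 0.10 (adjusted p = 0.000285) without the libraries with few genes. With all other libraries kept, the WT call was lost without any WT library except CD4+ and CD8+ replicate 1 (adjusted p of 0.0607 to 0.148). Of the 100-base stretches of Hsp90aa1 38.0% occur in another gene, mainly Gm12346, and none of those of Hsp90ab1 does.

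Hsph1 (Hsp110), which exchanges the nucleotide of Hsp70, was at 107 to 148 CPM in WT CD4+ and 150 to 192 CPM in WT CD8+ TILs, without overlap. In Sirt2-/- mice it was at 103 to 227 CPM in CD4+ and 123 to 170 CPM in CD8+ TILs, with overlap. The log2 fold change of CD8+ over CD4+ TILs was 0.38 ± 0.13 in WT (edgeR adjusted p = 0.082) and 0.09 ± 0.30 in Sirt2-/- mice (adjusted p = 0.998), and 0.55 ± 0.10 (adjusted p = 0.0025) and 0.47 ± 0.14 (adjusted p = 0.0273) without the libraries with few genes.

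Hspa5, the master chaperone of the ER and a target of the unfolded protein response, is shown with 30 bases of its RefSeq promoter (chromosome 2, at -71 to -42), because its motif is of another kind than those above. Capitals mark the ER stress element (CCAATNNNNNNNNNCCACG, both strands), which occurred in 0.119% of the 32851 windows, and no heat shock element was found in the Hspa5 window.
Hspa5, chr2:34772019-34772048, plus strand: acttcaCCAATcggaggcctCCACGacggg
Hspa5 was at 276, 472, 446.5 and 447 CPM in WT CD4+ and 338, 520, 533 and 693 CPM in Sirt2-/- CD4+ TILs, against 456, 636, 657 and 731 CPM in WT CD8+ and 546, 604, 635.5 and 862 CPM in Sirt2-/- CD8+ TILs. The groups overlapped in both genotypes. Between the cell types, the log2 fold change (CD8+ over CD4+ TILs) was 0.51 ± 0.22 in WT (edgeR adjusted p = 0.176) and 0.32 ± 0.24 in Sirt2-/- mice (adjusted p = 0.802), and 0.54 ± 0.12 (adjusted p = 0.00522) and 0.54 ± 0.18 (adjusted p = 0.0554) without the libraries with few genes. With the replicate number as a block and all libraries, Hspa5 was called higher in WT (0.54, edgeR adjusted p = 0.0183).

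Counting the genes whose groups did not overlap, 6 of the 10 were higher in every WT CD8+ than every WT CD4+ library (Hspa8, Hsp90aa1, Hsp90ab1, Hsph1, Hspd1 and Hspe1), against 12.8% of all genes tested, and Hspa1b was lower, against 9.48%. In Sirt2-/- mice Hspa8, Hspd1 and Hspe1 were higher (all genes: 14.6%) and Hspa1b was lower (all genes: 6.75%) without overlap. With the libraries with few genes left out, Hspa5 joined the higher genes in WT, for 7 higher (all genes: 24.2%) and 2 lower (Hspa1a and Hspa1b, all genes: 18.7%). Hspa5, Hsp90aa1 and Hsp90ab1 joined in Sirt2-/- mice, for 6 higher and the same pair lower (all genes: 17.7% in each direction).

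The question whether loss of Sirt2 changed these genes was addressed within each cell type. None of the 10 was called in CD4+ TILs (all genes: 0%, 0 of 15070) or in CD8+ TILs (all genes: 0.00654%, 1 of 15302, which is Sirt2) by edgeR, and none had an unadjusted p below 0.05 in either. Over all genes, 190 and 579 had an unadjusted p below 0.05, DESeq2 called 7 and 28 genes and limma-voom 4 and 4, with none of the 10 among them. With all libraries the genotype groups of the 10 overlapped in both cell types, whereas 2.81% and 2.93% of all genes had groups without overlap. When the libraries with few genes were left out, none of the 10 was higher in every Sirt2-/- library (all genes: 6.37% in CD4+ and 2.31% in CD8+ TILs). Every Sirt2-/- library was then below every WT library for Hsp90ab1 in CD4+ TILs (1657 to 1935 against 2009 to 2225 CPM, lower for 4.07% of all genes) and for Hsph1 in CD8+ TILs (123 to 170 against 187 to 192 CPM, lower for 3.15% of all genes). The interaction of genotype with cell type, tested over the 16 libraries, gave none of the 10 and no other gene (0% of 17270, with 342 genes at an unadjusted p below 0.05, DESeq2 calling 2 and limma-voom 0).

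**Figure D4:**
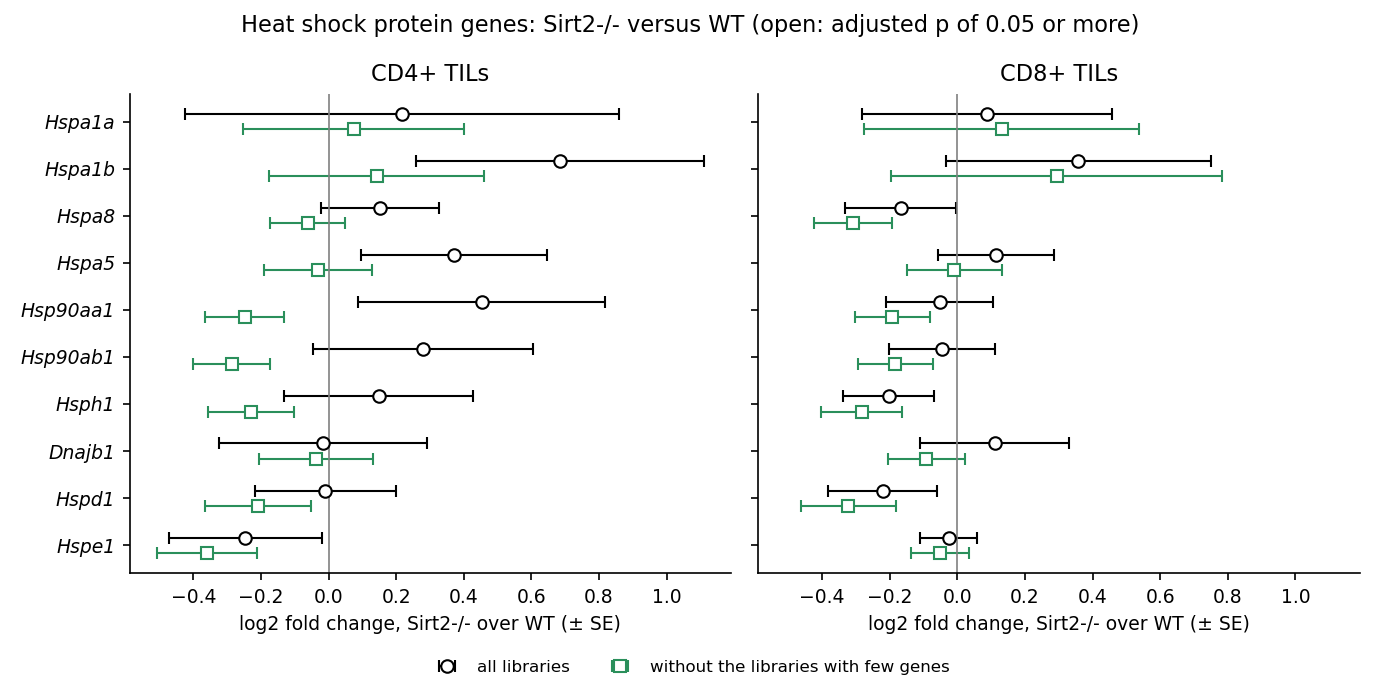
Log2 fold change of Sirt2-/- over WT (horizontal axis) with its SE for each heat shock protein gene in CD4+ (left) and CD8+ TILs (right), from all libraries (black circles) and without the libraries with few genes (green squares). No symbol is filled, since no gene was called. Leaving out the libraries with few genes moves Hsp90aa1 and Hsp90ab1 in CD4+ TILs from right to left of 0.

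In CD4+ TILs the estimates depended on the libraries with few genes. Hsp90aa1 had a log2 fold change of 0.45 ± 0.36 for Sirt2-/- over WT with all libraries and of -0.25 ± 0.12 without these libraries, and Hsp90ab1 of 0.28 ± 0.33 and -0.29 ± 0.11. Hspa1b was at 0.68 ± 0.43 and 0.14 ± 0.32, Hspa1a at 0.22 ± 0.64 and 0.07 ± 0.33, and Hspe1 at -0.25 ± 0.23 and -0.36 ± 0.15. Of the 10 genes, 7 were above 0 with all libraries and 2 without these libraries. Beside this, the median of all genes in CD4+ TILs was -0.11 and -0.002, on the log2 scale. Without the libraries with few genes, 6 genes of 16034 (0.0374%) were called, none of them among the 10, and Hsp90ab1 and Hspe1 had an unadjusted p below 0.05 (0.0251 and 0.0314, edgeR adjusted p = 0.99 each).

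In CD8+ TILs the log2 fold changes of Sirt2-/- over WT ran from -0.22 ± 0.16 for Hspd1 to 0.36 ± 0.39 for Hspa1b with all libraries. Without WT CD8+ replicate 1 they ran from -0.32 ± 0.14 for Hspd1 to 0.29 ± 0.49 for Hspa1b. Then 7 genes of 15943 (0.0439%) were called, none of them among the 10, and Hspa8, Hsph1 and Hspd1 had an unadjusted p below 0.05 (0.0195, 0.0347 and 0.0408, edgeR adjusted p = 0.9998 each). For the interaction no gene of 17993 (0%) was called without the libraries with few genes, and 664 had an unadjusted p below 0.05. These p-values do not show that the genotypes had equal levels: the SE of Hspa1a and Hspa1b between genotypes reached 0.64 (CD4+ TILs, all libraries) and 0.49 (CD8+ TILs, without WT CD8+ replicate 1) on the log2 scale.

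The genes around the heat shock proteins were counted in 9 lists of 116 genes, of which 107 were tested between the cell types. In WT mice 14 were higher and 13 lower in CD8+ than CD4+ TILs, against 4.89% and 6.96% of all genes (39 and 24 of 108 without the libraries with few genes, against 14.9% and 13.1%). The counts in Sirt2-/- mice were 4 higher and 2 lower, against 0.918% and 1.32% (42 and 19 of 108, against 13.8% and 11.6%). These shares of all genes are the background for the counts of each list as well. Each list gene named below as higher or lower with all libraries was called in the same direction without the libraries with few genes. Between genotypes 0 of the list genes were called by edgeR in CD4+ TILs, in CD8+ TILs or in the difference between them, with or without these libraries.

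The TRiC chaperonin, the cytosolic counterpart of Hspd1 that folds actin and tubulin, lay on the side of Hspa8, Hsp90aa1, Hsp90ab1, Hspd1 and Hspe1. In WT mice 6 of its 8 subunit genes were higher in CD8+ TILs and none lower, with a median log2 fold change of 0.76 against -0.02 for all genes, and all 8 were higher without the libraries with few genes. Cct5 and Cct8 were higher by 0.77 ± 0.13 and 0.81 ± 0.14 (edgeR adjusted p = 0.00273 and 0.00337). Cct3 was called in Sirt2-/- mice, at 1.06 ± 0.12 (adjusted p = 0.00449), and all 8 without Sirt2-/- CD4+ replicate 4. Of 11 mitochondrial chaperone and protease genes, 2 were higher in WT and 1 in Sirt2-/- CD8+ TILs (4 and 4 without the libraries with few genes) and none was lower. Among them, Hspa9 (mortalin), the mitochondrial Hsp70, was higher in both genotypes, by 0.91 ± 0.17 (adjusted p = 0.00612) and 1.02 ± 0.14 (adjusted p = 0.00862).

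Among 19 regulators of Hsp70 and Hsp90, 2 were higher and 2 lower in WT CD8+ TILs, and 10 higher and 2 lower without the libraries with few genes. Ppid (Cyp40), a co-chaperone of Hsp90, was higher by 0.95 ± 0.15 (edgeR adjusted p = 0.00244). In Sirt2-/- mice 1 was higher and none lower (11 and 2 without CD4+ replicate 4). Stip1 (Hop), which hands clients from Hsp70 to Hsp90, was that gene, at 0.86 ± 0.13 (adjusted p = 0.0116). Bag3, which HSF1 induces and which works with Hspa1a and Hspa1b in autophagy, was among the 2 lower genes in WT (-1.04 on the log2 scale), and was picked out after its values were seen. Hspa4, a further Hsp110, was 1 of 5 tested genes of the other Hsp70 and Hsp110 list called in WT, and 1 of 6 in Sirt2-/- mice (0.61 ± 0.11, adjusted p = 0.0312), and 1 and 2 of 6 were called without the libraries with few genes. Of 13 Hsp40 genes 1 was higher and 1 lower in WT and none was called in Sirt2-/- mice (3 and 1, and 4 and 1, without the libraries with few genes), and none of the 3 to 4 tested small heat shock protein genes was called in either.

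Hsf1, the factor that drives the heat shock response, was at a log2 fold change of 0.02 ± 0.19 between CD8+ and CD4+ TILs in WT and 0.23 ± 0.35 in Sirt2-/- mice (edgeR adjusted p = 0.971 and 0.998). No heat shock factor of the 3 tested was called with all libraries. Hsf2 was lower and Hsf4 higher in both genotypes without the libraries with few genes, again picked out after their values were seen.

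Of 24 genes of ER chaperones and the unfolded protein response, 2 were higher and 4 lower in WT CD8+ TILs (10 and 7 without the libraries with few genes), and none was higher and 1 lower in Sirt2-/- mice (10 and 6). The members that moved did not go one way. Hsp90b1 (Grp94), the ER Hsp90, was higher in WT by 0.51 ± 0.11 (edgeR adjusted p = 0.0137). In Sirt2-/- mice Hsp90b1 was not called, at 0.16 ± 0.30 (edgeR adjusted p = 0.998), and was called higher without CD4+ replicate 4 (edgeR adjusted p = 0.0203). Ppp1r15a (Gadd34), a stress-induced phosphatase subunit, was lower by -1.30 ± 0.22 (adjusted p = 0.00306) in WT and -1.25 ± 0.24 (adjusted p = 0.0377) in Sirt2-/- CD8+ TILs.

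The immediate early genes that tissue dissociation is known to induce, and that T cell activation also induces, lay on the side of Hspa1a and Hspa1b. Of 20 genes, 6 were lower in WT CD8+ than CD4+ TILs and none higher (13 lower and 2 higher without the libraries with few genes), and 1 was lower and none higher in Sirt2-/- mice (9 and 2). The median log2 fold change was -0.76 in WT, against -0.02 for all genes, and -0.51 in Sirt2-/- mice, against 0.16. Dusp1, a phosphatase of MAP kinases, was lower by -2.21 ± 0.37 (edgeR adjusted p = 0.00288) in WT and -1.80 ± 0.35 (adjusted p = 0.0374) in Sirt2-/- CD8+ TILs, and Nfkbia, the inhibitor of NF-kB, by -1.28 ± 0.23 (adjusted p = 0.00378) in WT. The 2 genes higher without the libraries with few genes were Egr1 and Ier3 in both genotypes, named after their values were seen. The part of dissociation in the levels of Hspa1a and Hspa1b was not tested. In these bulk samples, fewer cells that express a gene and less of its RNA per cell cannot be told apart.

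**Figure D5:**
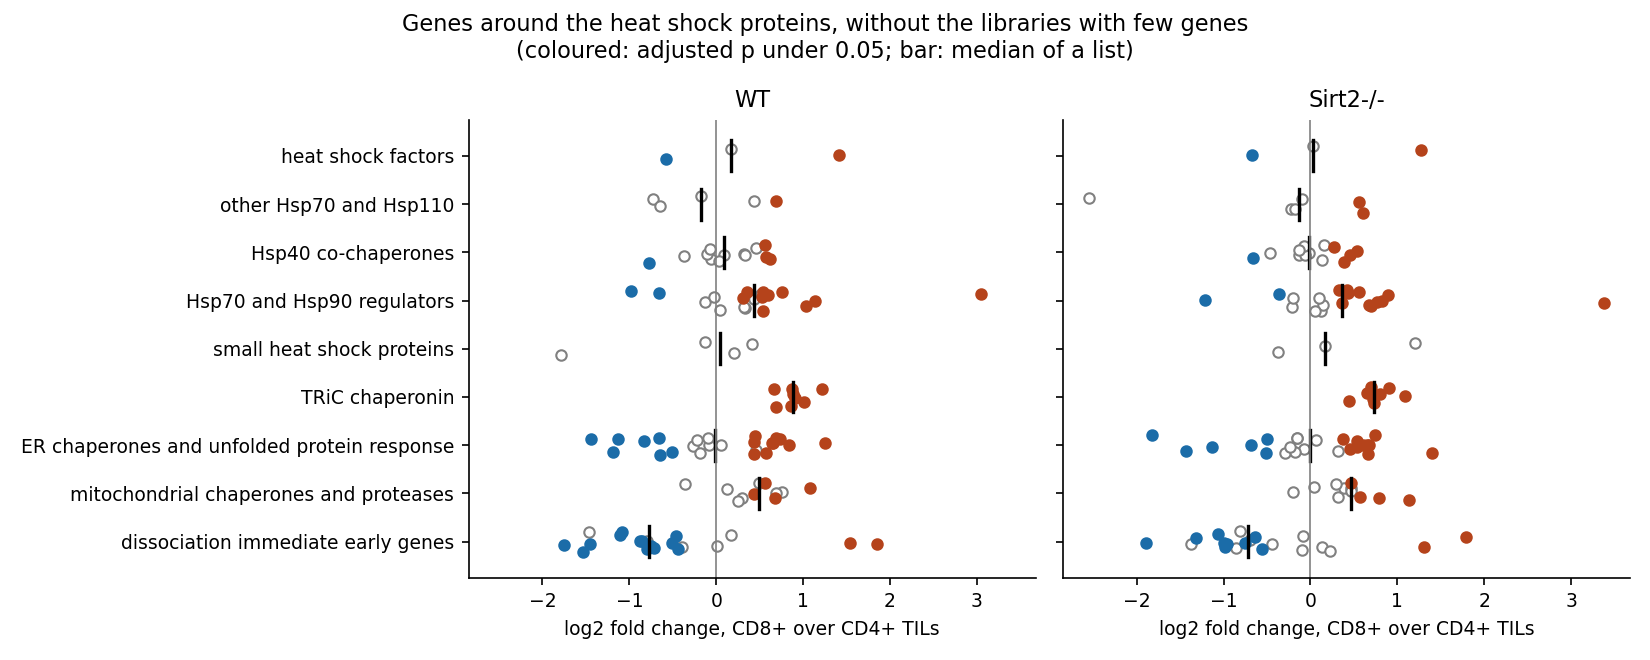
Log2 fold change of CD8+ over CD4+ TILs (horizontal axis) for each gene of the 9 lists (rows) in WT (left) and Sirt2-/- mice (right), without the libraries with few genes. Colored points have an adjusted p below 0.05 (red higher, blue lower), gray open points do not, and black bars are medians. All 8 TRiC genes lie right of 0 in both panels, and 13 and 9 of the 20 dissociation immediate early genes are called left of 0.

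Within groups, the heat shock protein genes varied together to a degree that rested on the libraries with few genes. Over the deviations of log2 CPM from the group means, the median Pearson correlation of the 45 gene pairs was 0.51 over 16 libraries and 0.09 over the 13 others. Hsp90aa1 and Hsp90ab1 kept a high correlation (0.97 and 0.81), Hspa1a and Hspa1b were at 0.56 and 0.87, and Hspd1 and Hspe1 at 0.19 and -0.35. The points of these correlations are libraries that differ in depth (28000949 to 62407851 counts) and in genes detected (8169 to 22138), and the values are a description.

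For each heat shock protein gene, the 2 other genes with the most similar deviations over the 16 libraries were listed, and 0 of these 20 were among the top 2 over the 13 libraries. Hspa5 was followed by Mlkl (r = 0.94) and Dnajb11 (r = 0.94), an ER Hsp40 that works with BiP, which was at 0.92 over the 13 libraries. Hsp90ab1 was followed by Tcp1 (r = 0.98), a TRiC subunit, at 0.65 over the 13 libraries, and Nono (r = 0.98). Hspd1 was followed by Psmd2 (r = 0.93 in both sets), a subunit of the proteasome, and Eprs (r = 0.92). Hsp90aa1 was followed by Ssrp1 (r = 0.99) and Eif3c (r = 0.98), Hspa8 by Cggbp1 (r = 0.94) and Taf6 (r = 0.93), and Hspe1 by 4930403P22Rik (r = 0.87) and Snap29 (r = 0.85). For Hspa1a these were Clcn3 (r = 0.90) and Wdfy3 (r = 0.86), for Hspa1b Pros1 (r = 0.82) and Antxr2 (r = 0.81), for Hsph1 AI662270 (r = 0.96) and Mrps33 (r = 0.96), and for Dnajb1 Nfkbib (r = 0.94) and Lrrc27 (r = 0.94).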

How the data were processed

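Total RNA of CD4+ and CD8+ TILs was sequenced by the authors with a stranded, ribosomal RNA-depleted library kit for low input. The values deposited by the authors are raw read counts, whole numbers for each gene in 16 libraries, in 1 table. The submitters' processing notes name STAR, HTSeq and mm10, with no version, and the strand setting of the counting is not given in the sources used here. All 55450 gene identifiers are in GENCODE mouse release M21 (GRCm38), which gave positions and exon lengths. Groups came from the labels' genotype and cell type, with 4 libraries each, and total counts ranged from 28000949 to 62407851. Counting error was not compared with the spread between libraries.

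The two-sided quasi-likelihood test of edgeR 4.0.16 (R 4.3.3), with a robust fit, TMM scaling and the filterByExpr filter set by group, was used for 5 comparisons: genotypes within each cell type, cell types within each genotype (each on its 8 libraries), and the interaction of genotype with cell type (16 libraries). P-values were adjusted over all genes tested by the Benjamini-Hochberg method, with calls at an adjusted p below 0.05. The SE of a log2 fold change was its absolute value divided by the square root of the test's F statistic. The study's methods name no test for these counts. CPM were counts scaled to the library's total, RPKM used union exon lengths, and correlations used log2 CPM with a prior count of 2. Libraries with fewer than 15000 genes detected (3 of 16) were left out in a second fit of each comparison. The comparisons were repeated with DESeq2 1.42.0, with limma-voom and quality weights (limma 3.58.1), with other scalings, with 2 other filters (none, or 10 counts or more in each library), with Hspa1a and Hspa1b summed, in 1 model over all 16 libraries, with a block for the replicate number, at a threshold of 0.1, with a prior count of 0.5 and without each library in turn. A block without the libraries with few genes was added after the data were seen. Promoter windows and motif shares came from RefSeq sequences of GRCm38.p6, and 7 of the 10 genes matched. The fit function was tested on simulated counts for the genotypes in CD8+ TILs and for the cell types in WT. The simulation gave each library of a group the same expected shares, so it did not cover libraries with few genes detected.

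The 10 genes, the 9 gene lists, the 7 marker lists and the limit of 15000 genes were chosen with earlier results of these data known. Named are the 10 genes, at most 6 list genes per comparison with the smallest p among those called, Hsf1, Hspa9 and Hsp90b1 in any case, the 2 genes most similar to each heat shock protein gene and Sirt2. Bag3, Hsf2, Hsf4, Egr1 and Ier3 fall outside this rule and were named after their values were seen. No library was left out of the first fits, and p-values measure the spread between libraries, which the labels do not tie to single animals.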

Additional observations from a re-analysis of the deposited data

Results flagged for a closer look

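In each group of 4 libraries, a library was singled out when its gap to the nearest other library was, as a share of the group's range, above Dixon's 95% critical value. Of 48 such tests 11 gave a library, and chance would give about 2.4 if the tests were separate. They share libraries and genes that vary together, and the number of genes detected had already marked the libraries with few genes. The 2 numbers are therefore no test of an excess. Sirt2-/- CD4+ replicate 4 stood apart 4 times: with Hsp90aa1 at 1202.8 CPM against 406 to 490 CPM in the other 3 libraries, with Hsp90ab1 at 4384.7 CPM against 1657 to 1935 CPM, with 8169 genes detected against 19159 to 20310, and with 7.595 times as many counts on Hspa1b as on Hspa1a, against 1.82 to 1.98 times. WT CD8+ replicate 1 stood apart 3 times: with Hsph1 at 150.2 CPM against 187 to 192 CPM, with Dnajb1 at 26.3 CPM against 53.6 to 56.5 CPM, and with 14411 genes detected against 20105 to 20980. WT CD4+ replicate 1 stood apart with Hspa5 at 275.8 CPM against 446.5 to 472 CPM and with 4.749 times as many counts on Hspa1b as on Hspa1a, against 1.58 to 2.04 times. In Sirt2-/- CD8+ TILs, Hspa1b was at 29.5 CPM in replicate 4 against 11.8 to 13.3 CPM, and Hspa8 was at 2598.7 CPM in replicate 3 against 2119 to 2164 CPM.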

How the results depend on the processing

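The lowest count of these genes in any library was 185. Whether sampling limited them in the libraries with few genes detected was not tested. The scalings (size factors of DESeq2, upper quartile) changed no call of the 10 genes and moved the median of all genes by at most 0.04 on the log2 scale. Hspd1 and Hspe1 were higher in CD8+ TILs under every alternative run in direction, and Hspe1 lost its call only under the replicate block in Sirt2-/- mice. The causes of the changes below were not tested.

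Genes called between WT and Sirt2-/- CD4+ TILs were 6 without the libraries with few genes, 7 with DESeq2 and 4 with limma-voom. In CD8+ TILs they were 28 with DESeq2, 4 with limma-voom, 5 with no filter, 7 without the libraries with few genes, 4 with the replicate block, 3 at an adjusted p below 0.1, and 0 to 7 when leaving out 1 library. DESeq2 called 2 genes for the interaction. Between CD8+ and CD4+ TILs in WT, 2651 genes were called with DESeq2, 4394 without the libraries with few genes, 5481 with limma-voom, 811 with 1 model over all 16 libraries, and 1022 to 2767 when leaving out 1 library. In Sirt2-/- mice these were 1339 (5 of the 10 genes) with DESeq2, 4474 (9) with limma-voom, 907 (4) with at least 10 counts in every library, 4250 (8) without the libraries with few genes, 616 at an adjusted p below 0.1, 781 with 1 model over all 16 libraries, and 111 to 4250 (1 to 8) when leaving out 1 library. In 1 model over all 16 libraries, Hsp90aa1 and Hsp90ab1 lost their WT calls (edgeR adjusted p = 0.23 and 0.0914).

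No pairs were used. Same-number libraries correlated in their deviations at 0.07 to 0.12 between CD8+ and CD4+ TILs in WT (4 of 4 best with their own number) and -0.01 to 0.13 in Sirt2-/- mice (2 of 4), and at -0.07 to 0.08 between genotypes. Libraries with different numbers were at -0.09 to 0.06 in WT, -0.12 to 0.08 in Sirt2-/- mice and -0.09 to 0.10 between genotypes. In WT every same-number value thus exceeded every other value. With the replicate number as a block (replicate block), 108 genes and 0 of the 10 were called between cell types in Sirt2-/- mice (Hspd1 adjusted p = 0.0683 and Hspe1 0.0513, edgeR), and 4524 genes and 9 of the 10 when the libraries with few genes were also left out. In WT these were 1619 (7 of the 10, Hspa5 added at adjusted p = 0.0183, edgeR) and 4981 genes, with Dnajb1 at 0.020 in the latter.

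The following values changed sign, none of them called. For Sirt2-/- against WT in CD4+ TILs, limma-voom gave log2 fold changes of -0.036 for Hspa1a, -0.080 for Hspa8, -0.18 for Hsp90aa1, -0.23 for Hsp90ab1 and -0.25 for Hsph1. Without the libraries with few genes, the values were -0.062 for Hspa8, -0.031 for Hspa5, -0.25 for Hsp90aa1, -0.29 for Hsp90ab1 and -0.23 for Hsph1. When leaving out 1 library they spanned -0.088 to 0.63 for Hspa1a, -0.12 to 0.63 for Hsp90aa1, -0.23 to 0.44 for Hsp90ab1, -0.24 to 0.28 for Hsph1, -0.26 to 0.21 for Dnajb1 and -0.12 to 0.14 for Hspd1. In CD8+ TILs, limma-voom gave -0.00085 for Hspa5 and -0.089 for Dnajb1, the fits without the libraries with few genes -0.0093 and -0.092, and the replicate block -0.028 for Hspa1a. When leaving out 1 library the values spanned -0.32 to 0.29 for Hspa1a, -0.070 to 0.78 for Hspa1b, -0.036 to 0.23 for Hspa5, -0.19 to 0.053 for Hsp90aa1, -0.18 to 0.072 for Hsp90ab1, -0.092 to 0.23 for Dnajb1 and -0.052 to 0.011 for Hspe1. Between cell types, Dnajb1 in WT was at 0.0044 without the libraries with few genes, and Hsph1 in Sirt2-/- mice spanned -0.065 to 0.47 when leaving out 1 library. For the interaction of genotype with cell type, limma-voom gave 0.17 for Hspa1a, 0.54 for Hspa1b, 0.017 for Hsp90ab1 and -0.018 for Dnajb1. Without the libraries with few genes it was 0.053 for Hspa1a, 0.15 for Hspa1b, 0.022 for Hspa5, 0.056 for Hsp90aa1, 0.10 for Hsp90ab1 and -0.057 for Dnajb1. When leaving out 1 library it spanned -0.54 to 0.19 for Hspa1a, -0.76 to 0.080 for Hspa1b, -0.70 to 0.060 for Hsp90aa1, -0.50 to 0.18 for Hsp90ab1, -0.49 to 0.038 for Hsph1 and -0.10 to 0.36 for Dnajb1. The median correlation of the 10 genes was 0.09 without the libraries with few genes, against 0.51.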
